A study of Mus musculus with 6 samples.

Results

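The wild type (WT) Th17 cultures were the 3 samples titled as wild type in a series of 6, and their expression was described here without any comparison to the other genotype. The WT group was chosen by sample title, and the rows of synthetic spike-in RNA were removed. Spleen and lymph nodes of mice of the C57BL/6 strain supplied the naive CD4 T cells, and each culture was kept for 72 hours on coated antibodies to CD3 and CD28 with human recombinant TGFβ and mouse IL-6. The genotype label of the WT group was iCD4-PRMT5fl/fl, so these cells carried floxed alleles of Prmt5. The labels do not say whether they also carried a Cre or had received an inducing agent, and they do not tie a replicate to a single animal. A level is given as TPM, the relative number of transcript copies: the count divided by the gene's length in the table, scaled so that genes of at least 200 bases sum to the same total in each library. Values are the mean ± SD over 3 libraries, and the SD describes the spread between these samples, which may be technical.

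Th17 cells are CD4 helper T cells that secrete IL-17A and IL-17F, cytokines that act on epithelium and stroma to call neutrophils to barrier tissues. In mouse cells TGFβ and IL-6 together start the programme: IL-6 signals through gp130 to STAT3, which with BATF, IRF4 and other factors opens and activates the cytokine genes. IL-21 then acts back on the cells, and IL-23 sustains them through a receptor that appears during differentiation.

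Several of the cytokine genes described below carry the letters TATAAA, the core of a TATA box, just before their start, and a few of these stretches are shown for that reason. Each line gives the 100 bases upstream of the RefSeq start on GRCm38.p6, 5′ to 3′ on the gene's own strand, with the letters TATAAA in capitals wherever they occur. The first 3 genes encode cytokines made at very different levels and Irf4 encodes a factor of the Th17 programme. Il21, Hif1a and Rplp0, in contrast, have no TATAAA in the stretch.
Il17f (chr1:20784271-20784370, minus strand): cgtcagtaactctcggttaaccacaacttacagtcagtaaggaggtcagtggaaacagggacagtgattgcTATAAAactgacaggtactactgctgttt
Il17a (chr1:20730805-20730904, plus strand): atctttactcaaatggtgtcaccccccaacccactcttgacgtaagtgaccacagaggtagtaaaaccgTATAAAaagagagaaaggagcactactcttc
Il2 (chr3:37125955-37126054, minus strand): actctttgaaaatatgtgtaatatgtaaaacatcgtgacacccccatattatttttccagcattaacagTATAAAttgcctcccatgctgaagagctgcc
Irf4 (chr13:30749133-30749232, plus strand): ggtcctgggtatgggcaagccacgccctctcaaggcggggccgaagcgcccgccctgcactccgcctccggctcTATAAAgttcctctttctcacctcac
Il21 (chr3:37232637-37232736, minus strand): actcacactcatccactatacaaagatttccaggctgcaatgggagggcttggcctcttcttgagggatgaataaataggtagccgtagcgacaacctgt
Hif1a (chr12:73907767-73907866, plus strand): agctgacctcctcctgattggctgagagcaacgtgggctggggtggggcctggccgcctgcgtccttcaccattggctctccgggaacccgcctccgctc
Rplp0 (chr5:115559367-115559466, plus strand): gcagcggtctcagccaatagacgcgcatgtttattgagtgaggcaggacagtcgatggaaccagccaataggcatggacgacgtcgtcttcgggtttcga

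Promoter sequence, 250 bases before to 50 after the start, was matched by symbol for 16493 protein-coding genes. TATAAA began 40 to 20 bases before the start, on the gene's strand, in 2.78% of them and in 0.976% of those with a mean of 1 TPM or more in the WT cultures. Among the 17 cytokine genes at 1 TPM or more with a promoter, 5 had it there (29.4%), namely Il17f, Il2, Il17a, Ifng and Il13. Anywhere in the window and on either strand, TATAAA stood in 41.2% of these cytokine promoters against 6.49% of all detected protein-coding promoters. The median promoter of the cytokine group was 49% GC and held 4 CpG pairs, whereas that of detected protein-coding genes was 61% GC and held 21. The promoters of the 61 cytosolic ribosomal protein genes matched were at 58% GC with 21 CpG pairs, and 1 of them (1.64%) had TATAAA in the window. Of the genes under 1 TPM, 4.55% had it. In other lists at 1 TPM or more, 3 of 8 IRF factor promoters had it (37.5%) and 1 of 9 Th17 factor promoters (11.1%). The letters stood there in 1 of 8 promoters of tumour necrosis factor family ligands (12.5%) and in 0 of 5 chemokine promoters. Il17f and Il17a thus shared the letters and a low GC content (46.3% and 48.3%) while their RNA levels stood far apart, as given below.

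Depth was 36011906 counts for WT replicate 1, 43141474 for WT replicate 2 and 42543115 for WT replicate 3, of which spike-in RNA took 0.163% to 0.216%. WT replicate 2 stood apart from the others. Among genes with enough counts to compare, its log2 values correlated with those of WT replicate 1 at r = 0.977 and with those of WT replicate 3 at r = 0.984, against 0.994 between WT replicates 1 and 3 (Pearson, 10480 genes, a description across genes that share these libraries).

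The T cell label held in these cultures. All 14 T cell markers were at 1 TPM or more, a level reached by 47% of all nuclear protein-coding genes. They ran from the T cell receptor constant gene Trbc2 at 1916 ± 103 TPM down to Cd3e, a chain of the same receptor complex, at 15 ± 1.56 TPM. Cd3e stood far below its partners Cd3d (270 ± 26.1 TPM) and Cd3g (123 ± 16.8 TPM). Cd4, the co-receptor that defines the lineage, was at 174, 73.4 and 146 TPM in WT replicates 1, 2 and 3. It was lowest in WT replicate 2, and without that library the mean was 160 TPM in place of 131. Cd8a, the co-receptor of cytotoxic T cells, was at 0.583, 0.224 and 0.517 TPM, and Cd8b1 at 8.35 ± 1.44 TPM. The ratio of Cd4 to Cd8a levels was 302 ± 23.2 and lay between 282 and 327 in every library.

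Genes of other cell types differed by list. Of the B cell list, 5 of 11 genes were at 1 TPM or more (45.5%, near the 47% of nuclear protein-coding genes), led by Ighm, the μ heavy chain gene, at 142 ± 19.7 TPM. The other B cell genes were at 3.49 TPM or less. The summed level of the B cell list ran from 124 to 170 TPM. Of the natural killer and innate lymphoid list 6 of 11 genes reached 1 TPM (54.5%). Gzma, which encodes granzyme A of cytotoxic granules, was at 16.4, 24.6 and 30.3 TPM, lowest in WT replicate 1, whereas Ncr1, an activating receptor of natural killer cells, was at 0.0635 TPM. Of the γδ T cell list 4 of 6 genes reached 1 TPM (66.7%, against the same 47%), and its sum ran from 25.4 to 36.2 TPM. The receptor constant genes Tcrg-C1 and Tcrg-C2 were at 12.6 ± 1.09 and 10.9 ± 2.43 TPM, and the δ chain constant gene Trdc was at 0.343 TPM. The part of such cells in the levels given below was not tested. Of the myeloid and dendritic list 2 of 13 genes reached 1 TPM (15.4%, against the same 47%). The list summed to between 4.67 and 7.25 TPM, and Fcgr1, Siglech and Xcr1 had no count in any library. Ly6g, a surface antigen known from neutrophils, was at 33.3, 50.8 and 102 TPM, and Cxcr2, a neutrophil chemokine receptor, at 14.1 ± 2.54 TPM. S100a8 and S100a9, abundant neutrophil transcripts, had no count in any library, which allows up to 3 counts per library or 0.0697 to 0.0835 CPM (counts scaled to the library total). No gene of the erythroid list reached 1 TPM. Of the stromal list, Pecam1, an adhesion molecule of endothelium and some leukocytes, was at 76.8 ± 5.66 TPM and Epcam, an epithelial adhesion molecule, at 10.1 TPM, while the endothelial gene Cdh5 and the fibroblast gene Col1a1 were at 0.034 and 0.0122 TPM. Prmt5 itself, the arginine methyltransferase whose alleles were floxed, was at 81.5, 96.5 and 85 TPM, the highest of the 9 arginine methyltransferase genes in each library. Prmt1, which makes most asymmetric dimethylarginine, followed at 54.6, 83.2 and 55.2 TPM and was high in WT replicate 2. Fewer cells of a type and less RNA per cell cannot be told apart in such bulk samples.

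Of 47731 genes of at least 200 bases, 12438 had a mean of 1 TPM or more (26.1%). Among nuclear protein-coding genes the number was 10315 of 21949 (47%), and the median level of those was 20.4 TPM. Only 143 genes were at 1000 TPM or more, and 21641 had no count in any of the 3 libraries. The 100 most abundant genes held 40.7 ± 0.344% of all TPM but 22.5% of the counts when length was not used.

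**Figure D1:**
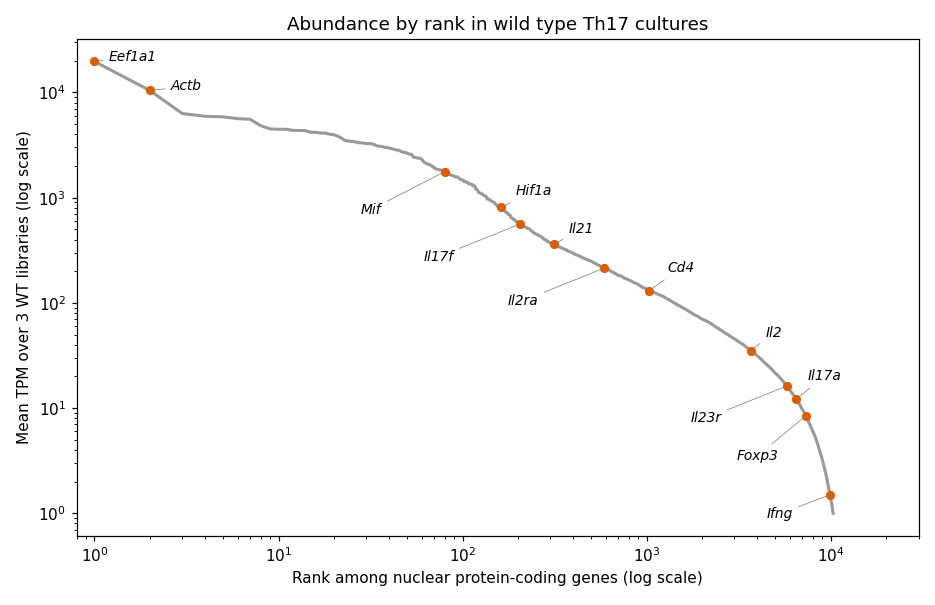
Mean TPM over the 3 WT libraries (y axis, log scale) against rank among nuclear protein-coding genes (x axis, log scale) for the 10315 genes at 1 TPM or more, as a grey line. Orange points mark genes named in the text, from Eef1a1 at 19713 TPM to Ifng at 1.5 TPM, with Il17f at rank 204 and Il17a at rank 6512.

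The most abundant transcripts were those of RNA metabolism and protein synthesis. Rn7sk, a small nuclear RNA that holds the transcription elongation factor P-TEFb inactive, alone held 9.36% of TPM, at 93823, 93225 and 93657 TPM. That level rests on a length of 331 bases. In raw counts Rn7sk (545011, 660246 and 651271) stood below Eef1a1 (624780, 737664 and 756747), and the first gene by counts held 1.75% of them. Among nuclear protein-coding genes Eef1a1, the translation elongation factor that brings tRNA to the ribosome, came first at 19844, 19217 and 20079 TPM. Actb, cytoplasmic actin, followed at 9477, 11422 and 10420 TPM and Rplp0, a protein of the ribosomal stalk, at 6307 ± 68.9 TPM. Tmsb4x, which binds free actin monomers, was at 5930 ± 388 TPM. Ribosomal proteins filled 14 of the first 20 places, and the 83 cytosolic ribosomal protein genes together held 19.5 ± 0.159% of TPM. Histone genes held 7.18 ± 0.196%, with Hist1h4k and Hist1h4f, both histone H4 genes, at 4112 and 4106 TPM. Malat1, a nuclear long non-coding RNA, was at 1073, 724 and 835 TPM.

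Many of these genes have near copies, so their levels are uncertain. In 51 of the 55 ribosomal protein genes among the 100 most abundant genes, at least 10% of the 31-base stretches of the longest GENCODE M21 transcript occurred in transcripts of another gene, and the median was 46.4%. For Eef1a1 the share was 74.8%, for Actb 35.3% and for Rn7sk 72.8%. In the Th17 cytokine genes described below it was low, at 0% for Il17f and Il17a. How the authors' counting treated reads with several placements is not given in the sources used here.

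The mitochondrially encoded mRNAs, which are made as parts of long shared precursors, were very uneven. mt-Co1, a subunit of cytochrome oxidase, was at 11485, 10195 and 11753 TPM, and mt-Nd1, a subunit of complex I, at 1968, 1289 and 2053 TPM. mt-Co2 and mt-Co3, further core subunits of the same oxidase, were at 22.8 ± 4.19 and 51.9 ± 4.06 TPM. Of the 13 mRNAs, mt-Co2, mt-Co3, mt-Atp6, mt-Nd3 and mt-Nd4l shared between 98.1% and 100% of their 31-base stretches with other genes and all lay at 51.9 TPM or less. mt-Nd1 shared 0%. mt-Cytb, a subunit of complex III, shared 6.55% and was at 1044, 591 and 1075 TPM, low in WT replicate 2 as mt-Nd1 was. mt-Co1 shared 63.9% and was still the highest, and mt-Atp8 shared 7.47% and was at 3.56 TPM, so level did not follow the shared fraction in all of them. The mt-Atp8 level is uncertain, since it rests on 15, 13 and 15 counts over 204 bases. The part of shared sequence in these levels was not tested.

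**Figure D2:**
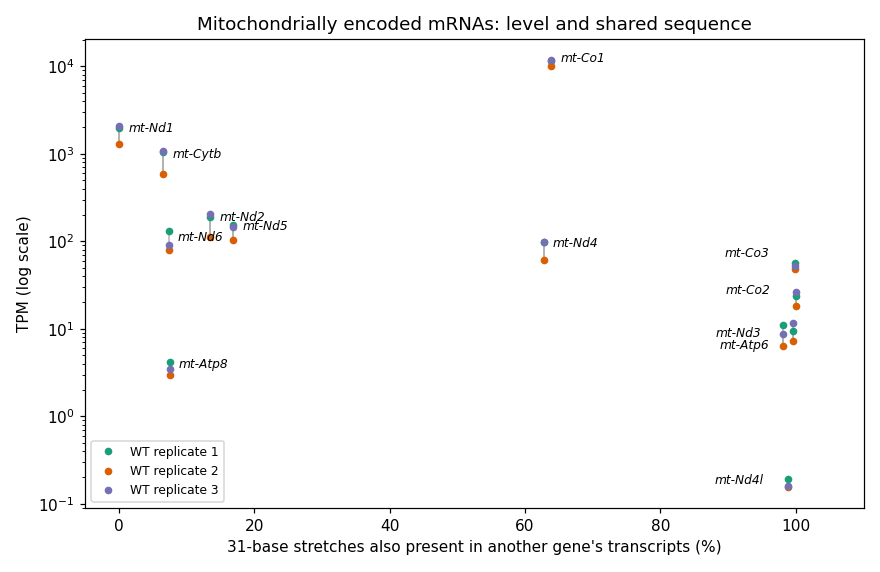
TPM (y axis, log scale) of the 13 mitochondrially encoded mRNAs in each WT library (coloured points) against the percentage of 31-base stretches that also occur in transcripts of other genes (x axis). The 5 genes at 98.1% or more lie between 0.17 and 51.9 TPM on average, whereas mt-Nd1 at 0% is at 1770 TPM.

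Il17f was the leading Th17 cytokine transcript and Il17a was far below it. Il17f was at 474, 559 and 643 TPM, rank 204 among protein-coding genes (262 by merged exon length and 510.0 with no length). Il17a, the founding member of the family, was at 10.2, 13.5 and 12.9 TPM, rank 6512 (5641 and 8583). The libraries did not overlap, and the ratio of Il17f to Il17a was 46.4, 41.4 and 49.7 (mean 45.8 ± 4.18). With the merged exon length of each gene in place of the table's length, the ratio was 26.7. Il21, which feeds back on Th17 cells, was at 392, 331 and 353 TPM, below Il17f in each library. Il22, which acts on epithelium, was at 6.72, 10.8 and 7.38 TPM, and was highest in WT replicate 2.

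The cytokines that define other helper types were present at low levels. Ifng, the Th1 cytokine, was at 1.65, 1.51 and 1.34 TPM, rank 9921. Il4, the Th2 cytokine, was at 9.89, 7.03 and 9.21 TPM, and Il9 at 9.14, 5.93 and 3.73 TPM. Il4 stood below Il17a in every library, by a small margin in WT replicate 1. Il2, the T cell growth factor, was at 43, 34.8 and 27.7 TPM, so it was above Il17a throughout and lowest in WT replicate 3. Il10, which restrains inflammation, was at 10.2, 16.6 and 14.3 TPM and could not be ordered against Il17a beyond the spread. Tgfb1, which encodes one of the polarizing factors, was at 5.99 ± 1.23 TPM.

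Over the whole list of 47 cytokine genes, 22 were at 1 TPM or more (46.8%, close to the 47% of all nuclear protein-coding genes), and 5 exceeded 100 TPM. Mif, a broadly made inflammatory mediator, was highest at 1767 ± 156 TPM and Il16, made as a larger precursor by many lymphocytes, was at 155 ± 4.62 TPM. Osm, a cytokine of the gp130 family, was at 114 ± 14.5 TPM. Below these came Il3 at 42.1 ± 7.08, Il24 at 36.7 ± 3.61, Lif at 16.3 ± 3.16 and Csf2 (GM-CSF) at 14.5 ± 3.08 TPM. Of 21 neighbouring pairs in the order of levels, 8 had ranges that did not overlap, and Il3, Il24 and Il2 were among those that could not be ordered. Il6 and Il1b, which myeloid cells make, were at 0.214 and 0.11 TPM.

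Of 17 ligand genes of the tumour necrosis factor family, 11 were at 1 TPM or more (64.7%, against 47% of nuclear protein-coding genes). Ltb, which joins Lta in membrane lymphotoxin, was at 338, 629 and 378 TPM, high in WT replicate 2, and at 358 TPM without that library. Lta was at 249, 178 and 194 TPM and Tnf at 132, 109 and 113 TPM. Chemokines were sparser, with 7 of 32 at 1 TPM or more (21.9%, against the same 47%), led by Ccl4, which attracts monocytes and T cells, at 39.2 ± 2.41 TPM. Ccl20, the ligand of CCR6 that Th17 cells are known to make, was at 4.58, 7.03 and 9.17 TPM and lowest in WT replicate 1.

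**Figure D3:**
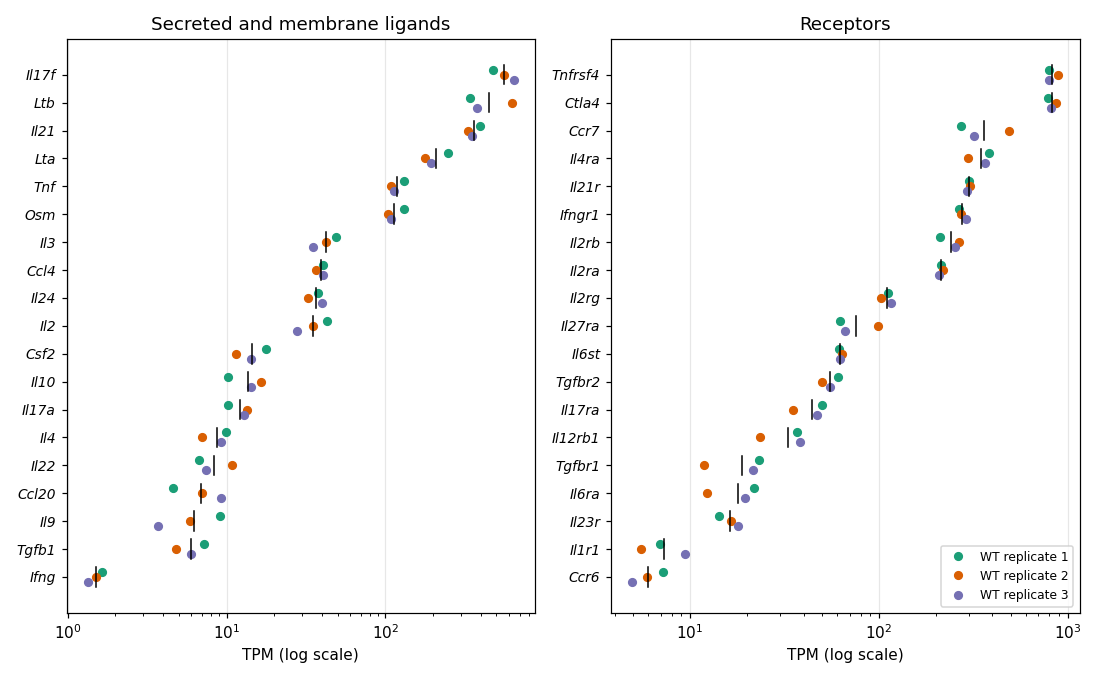
TPM (x axis, log scale) of selected ligand genes (left panel) and receptor genes (right panel) in each WT library (coloured points), with the mean as a black bar. Il17f lies between 474 and 643 TPM and Il17a between 10.2 and 13.5 TPM, and Ccr7, Tgfbr1 and Il6ra show WT replicate 2 away from the other libraries.

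Chains of the common gamma family made up most of the highest cytokine receptor transcripts. Of 51 cytokine receptor genes 34 were at 1 TPM or more (66.7%, against 47% of nuclear protein-coding genes). Il4ra, the IL-4 receptor chain, was at 348 ± 45.3 TPM, Il21r at 299 ± 6.14 TPM, Il2rb at 242 ± 28.9 TPM, Il2ra at 214 ± 6.18 TPM and Il2rg, the common chain, at 110 ± 7.36 TPM. Il4ra and Il21r overlapped between libraries. Ifngr1, the ligand-binding chain of the interferon γ receptor, was at 276 ± 13.4 TPM.

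The receptors for the polarizing cytokines lay lower. Il6st, which encodes gp130, was at 61.1, 63.9 and 62.2 TPM. Il6ra, the chain that binds IL-6, was at 21.7, 12.3 and 19.5 TPM, with the low value in WT replicate 2. The ratio of Il6st to Il6ra was 2.81, 5.19 and 3.19. Tgfbr2, the TGFβ-binding receptor kinase, was at 60.4, 50 and 54.8 TPM and Tgfbr1, its signalling partner, at 23.2, 11.9 and 21.6 TPM, again low in WT replicate 2. Il23r, the receptor chain that distinguishes Th17 cells, was at 14.2, 16.5 and 17.9 TPM, and its partner Il12rb1 at 37, 23.3 and 38.1 TPM. Il12rb1 was above Il23r in every library, by 2.61, 1.41 and 2.12 times. Il1r1, through which IL-1 acts on Th17 cells, was at 6.93, 5.49 and 9.4 TPM, highest in WT replicate 3. Only 7 of 33 neighbouring pairs in the order of cytokine receptor levels had ranges that did not overlap.

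Of the 23 costimulatory and coinhibitory receptor genes 22 were at 1 TPM or more (95.7%, against 47% of nuclear protein-coding genes). In this list the inhibitory receptor Ctla4 was at 827 ± 42 TPM and Icos at 350 ± 30 TPM. Of the 21 genes in a separate list of the tumour necrosis factor receptor family, 16 were at 1 TPM or more (76.2%). That list held Tnfrsf4 (OX40) at 827 ± 56.1 TPM and Tnfrsf18 (GITR) at 573 ± 15 TPM. Ccr7, which guides cells to lymph nodes, was at 274, 486 and 319 TPM, high in WT replicate 2, and S1pr1, which lets them leave, at 202, 173 and 189 TPM. Ccr6, the chemokine receptor typical of Th17 cells, was at 7.14, 5.94 and 4.94 TPM, far below Ccr4 at 134 ± 15.3 TPM. Gpr15, a homing receptor for the large intestine, was at 63.2, 82.3 and 91.2 TPM.

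All 15 transcription factors of the Th17 list were at 1 TPM or more, against 47% of nuclear protein-coding genes. The same held for every gene of the STAT, IRF and glycolysis lists. Most of the leading Th17 factors varied little. Hif1a, the oxygen-regulated factor, was at 833, 735 and 854 TPM. Junb, an AP-1 subunit, was at 724, 836 and 768 TPM and overlapped with Hif1a. Irf4 was at 672, 531 and 662 TPM. Its AP-1 partner Batf was at 212, 235 and 227 TPM, below Irf4 in each library. Ahr, the receptor for dietary and microbial ligands, was at 62.1, 72.2 and 83.9 TPM and Maf, which drives Il10, at 19.1, 17.2 and 23.8 TPM.

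Other factors of the list were uneven. Stat3, the IL-6 signal transducer, was at 82.3, 146 and 94.1 TPM and Bhlhe40, a helix-loop-helix repressor, at 46.8, 123 and 52.8 TPM. Both were high in WT replicate 2, and without it their means were 88.2 and 49.8 TPM. Rora, a nuclear receptor that supports the programme, was even at 9.72, 9.5 and 9.81 TPM. Its level rests on a length of 10878 bases, its longest transcript, so it depends on which transcript these cells make.

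Factors of other helper types were low. Foxp3, the factor of regulatory T cells that TGFβ induces, was at 7.66, 7.51 and 10.2 TPM. Tbx21 (T-bet), the Th1 factor, was at 6.18, 1.93 and 3.9 TPM, lowest in WT replicate 2, and Gata3, the Th2 factor, was at 1.88, 1.93 and 1.87 TPM. Among the STAT genes, Stat5a and Stat5b, which carry IL-2 signals, were both at 139 TPM (SD 6.71 and 9.69). Stat6, which carries IL-4 signals, was at 87.3, 166 and 97.2 TPM, high in WT replicate 2. Socs3, the inhibitor of gp130 signalling, was at 117, 31 and 72.1 TPM and Cish, the inhibitor of STAT5 signalling, at 34.5, 67.1 and 35.8 TPM. WT replicate 2 was thus the lowest library for Socs3 and the highest for Cish and Stat3. Among TGFβ signal transducers, Smad2 was at 55.2 ± 3.33 TPM, Smad3 at 9.91 ± 1.16 TPM and the corepressor Skil at 77.6 ± 2.87 TPM. Of the 12 such genes with enough counts, 1 varied 1.5-fold or more (8.33%, near the 12.9% of all genes assessed).

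**Figure D4:**
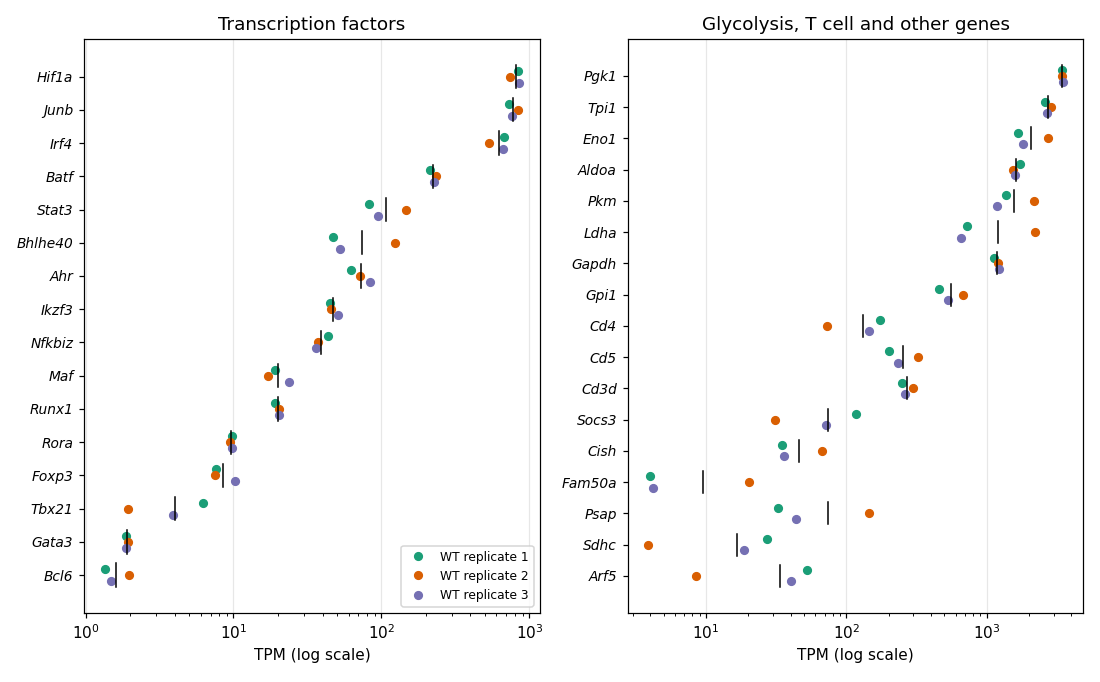
TPM (x axis, log scale) in each WT library (coloured points), with the mean as a black bar, for transcription factor genes (left panel) and for genes of glycolysis, T cell and other genes (right panel). Hif1a, Batf and Rora have close points, whereas for Stat3, Bhlhe40, Ldha, Psap and Sdhc the orange point of WT replicate 2 lies apart.

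Spread between the libraries was measured on TMM-scaled counts for 10480 genes with a mean of at least 100 counts and 1 TPM. The highest library was at least 1.5 times the lowest for 1357 of them (12.9%). The median coefficient of variation (CV) was 7.42%, against 2.73% from counting alone, and the common biological coefficient of variation of edgeR was 14.9%. WT replicate 2 was the library farthest from the other libraries for 1048 of the 1357 (77.2%), being high in 419 and low in 629. Over all 10480 genes assessed, WT replicate 2 was also often the farthest library, being high in 25.4% and low in 23.9%. Without WT replicate 2, 192 genes differed 1.5-fold or more and the common biological coefficient of variation was 8.30%.

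Glycolysis genes had the highest share of such genes among the programme lists. All 21 were at 10 TPM or more, a level reached by 7324 of the 47731 genes of at least 200 bases. Of the 21, 9 varied 1.5-fold or more (42.9%, against 12.9% of all genes assessed), and WT replicate 2 was the outlying library in each of the 9. It was the outlying library for 1048 of all 1357 genes that varied so. Without WT replicate 2, 0 of the 21 differed 1.5-fold, against 192 of all 10480 genes assessed, also a small share. Ldha, which turns pyruvate into lactate, was at 724, 2224 and 657 TPM, from 23077, 86365 and 25067 counts, and its mean without WT replicate 2 was 691 TPM. Eno1 (enolase) was at 1659, 2738 and 1824 TPM and Pkm (pyruvate kinase) at 1384, 2164 and 1188 TPM. The glucose transporter gene Slc2a1 was at 35.2, 63 and 30 TPM. Other steps of the same pathway were flat: Pgk1 was at 3433, 3433 and 3487 TPM, Tpi1 at 2599, 2875 and 2681 TPM and Gapdh at 1120, 1196 and 1220 TPM. Of the 9, Aldoc and Pfkm were low rather than high in WT replicate 2.

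The other programmes held fewer such genes. Of the cytokine receptors 7 of 32 assessed varied 1.5-fold or more (21.9%), against 12.9% of all genes assessed. The share was 7 of 17 for the chemokine receptors (41.2%), 4 of 15 for the Th17 factors (26.7%) and 3 of 26 for the cholesterol genes (11.5%). Among the abundant families the share was 2 of 80 ribosomal protein genes (2.5%) and 6 of 10 mitochondrially encoded genes (60%). Without WT replicate 2 the counts were 0 of 32 cytokine receptors, 3 of 17 chemokine receptors, 1 of 15 Th17 factors and 0 of 26 cholesterol genes. Over all genes assessed the count was 192 of 10480. The chaperone genes Hspa8, at 1113, 1908 and 1152 TPM, and Hsp90ab1, at 666, 1422 and 726 TPM, were high in WT replicate 2.

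Among genes for which WT replicate 2 was the outlying library, those with wide differences had varied roles. Fam50a, a nuclear protein gene, was at 3.95, 20.2 and 4.17 TPM, Psap, the precursor of lysosomal saposins, at 32.7, 146 and 43.5 TPM, and Plk1, a mitotic kinase, at 13.3, 50.3 and 16.7 TPM. In the other direction, and named after their values were seen, Sdhc, a subunit of succinate dehydrogenase, was at 27.1, 3.88 and 18.8 TPM and Arf5, a small GTPase of membrane traffic, at 52.4, 8.42 and 40.1 TPM.

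The share of genes that varied rose with GC content. Genes were split into 10 equal groups by the GC content of the longest transcript. In the lowest group (30.8% to 40.8% GC) 6.21% varied 1.5-fold or more, and in the highest (57.1% to 78.3%) 25.3% did. The median count per gene also differed, at 1798 in the lowest and 730.3 in the highest group. Between WT replicates 1 and 3 alone, the share was 2.96% in the lowest and 2.58% in the highest group. Genes high in WT replicate 2 had a median GC of 52.9% and genes low in it 53.3%, against 48.9% for all genes assessed. The GC content was thus raised on both sides, and the median log2 ratio of WT replicate 2 to the others stayed between -0.02 and 0.04 in every group. The part of GC content in these differences was not tested.

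**Figure D5:**
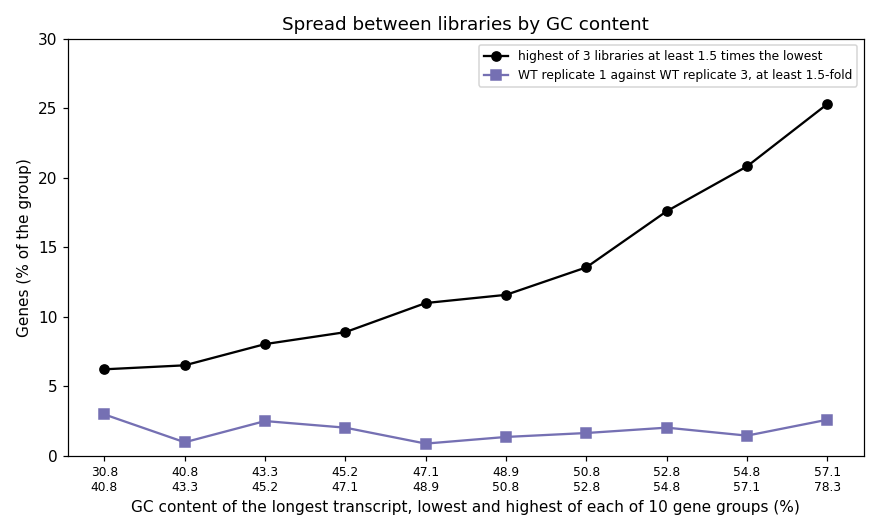
Percentage of genes (y axis) in each of 10 equal groups of 10469 genes by GC content of the longest transcript (x axis, the lowest and highest value of each group). Black circles are genes whose highest library was at least 1.5 times the lowest, rising from 6.21% to 25.3%, and purple squares are genes 1.5-fold apart between WT replicates 1 and 3, which stay between 0.86% and 2.96%.

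A second set of genes varied in another order, highest in WT replicate 1 and lowest in WT replicate 2. Predicted genes without an assigned function led it, and whether their counts come from transcripts of these genes was not tested. WT replicate 1 also had the most genes with a count. The numbers were 24364, 22182 and 22594 in WT replicates 1, 2 and 3. Gm10800 was at 437, 0.85 and 88.1 TPM, Gm26870 at 106, 0.24 and 36 TPM and Gm21738 at 53.4, 0.206 and 11.3 TPM, with Gm10801 and Gm11168 alike. The MHC class II genes H2-Aa, at 22.6, 3.3 and 10 TPM, and H2-Eb1, at 14, 2.49 and 7.12 TPM, which present peptides on B cells and dendritic cells, had the same order. The class II gene H2-Ab1 did not, at 90.8, 65.4 and 93.8 TPM. In a list of 10 genes tied to class II, 6 did. The 6 included Cd74 and Ciita, which are not class II genes themselves. H2-Oa and H2-Ob also followed the order, whereas H2-DMa, H2-DMb1 and H2-DMb2 did not. Cd74, Ciita and H2-DMb1 had too few counts to be assessed. Of the B cell list 8 of 11 genes followed the order, but 2 of the 11 had enough counts to be assessed. The 23.6% of assessed genes in this order is therefore a share of an unlike set. The order was noticed in these data, and the part of B cells or dendritic cells in it was not tested.

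The histone gene Hist1h4m, at 380, 21.9 and 23.1 TPM, had the largest CV (145%) of all genes with a mean of at least 100 counts and 5 TPM. It was high in WT replicate 1, while Hist1h4k, another H4 gene, was even at 3982, 4183 and 4170 TPM. Hist1h4m shared 91.7% of its 31-base stretches with other genes. The peptide transporter gene Slc15a2 was at 15.3, 4.58 and 2.13 TPM, and Gm15446 was at 0.448, 10.5 and 9.35 TPM, the reverse.

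Among the 6098 genes with a mean of at least 1000 counts, the 10 steadiest had a CV below that of counting alone. Picking the lowest of so many genes over 3 libraries gives such values by itself, so they do not show that these genes are steadier than others. They included the helicase gene Ddx52 at 91.1 ± 1.99 TPM, the DNA repair kinase gene Prkdc at 17.1 ± 0.381 TPM and the T cell receptor constant gene Trbc1 at 921 ± 21 TPM. Of the programme members Socs6, a relative of Socs3, was among them at 15.1, 14.5 and 14.6 TPM.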

How the data were processed

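Raw counts per gene were deposited by the authors in a single table with a length per gene. Per the submitters' processing notes STAR, featureCounts, DESeq2 and DESeq were used with GRCm38.p3; versions, and whether counting used the strand, are not given in the sources used here. Libraries were made with a stranded kit after removal of ribosomal RNA, per the labels' protocols. The lengths had no stated origin and equalled the longest GENCODE M21 transcript for 98.4% of placed genes.

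The 3 WT samples were grouped by title. After removal of 92 spike-ins, TPM were computed from the counts over 47731 genes of at least 200 bases. Spread was measured on counts scaled by TMM (edgeR 4.0.16, R 4.3.3). The steps were also run on simulated data with a smaller spread and far fewer changed genes. That run cannot show how they perform on libraries as uneven as these. With 1 group there was no contrast and no p-value. Floors of 3 counts cover counting error only. GC content and shared 31-base stretches came from GENCODE M21 transcripts and promoters from RefSeq.

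The members and the 31 gene lists were chosen with earlier results of these data known. Genes were named by a rule: the most abundant 20 protein-coding and 10 other genes, up to 8 members of each programme list by level and 2 by spread, 33 chosen for the Th17 question, the 20 most variable and 10 steadiest genes, and up to 5 members of each cell type list. Others are said to be chosen after their values were seen. A level ratio and several genes under this rule are not reported here. Alternatives were another length or none, other denominators, thresholds, scalings (RLE, upper quartile, total, spike-in), filters, DESeq2 1.42.0 dispersions and leaving out each library.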

Additional observations from a re-analysis of the deposited data

How the results depend on the processing

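The number of genes at 1 TPM or more ran from 12378 to 12487 when a library was left out and from 10447 to 13105 over lengths and denominators; at a threshold of 10 TPM it was 7324. The share of TPM in the 100 most abundant genes was 40.7% to 41% with a library left out, and 42.8% by merged exon length, 22.5% with no length, 39.8% over all lengths, 36.1% over protein-coding genes and 35% without mitochondrial, structural RNA and histone genes. The 1357 genes varying 1.5-fold became 192 to 1177 with a library left out (863 without WT replicate 1, 192 without WT replicate 2), 2483 by spike-in scaling, 7104 of 18713 with no filter, 504 at a mean of at least 1000 counts and 408 at a fold of 2. RLE, upper-quartile and total scaling gave 1354 to 1373. The common biological coefficient of variation ran from 8.30% to 19.0% with a library left out. The gene-wise median was 6.38% by DESeq2 and 6.46% by moments, and a median over genes is an unlike measure to the common value. The ratio of Il17f to Il17a was 26.7 by merged exon length and 43.9 to 48 with a library left out. Of the 33 genes chosen for the Th17 question, the rank moved beyond its SD for 19 by merged exon length and 29 with no length. No paired analysis was possible because only 1 group was described. At 36011906 counts or more per library, the CV was above that of counting alone for 87.0% of genes assessed. The CV of counting is an expected value, and genes can exceed it from counting alone. The 87.0% is therefore not a share of genes shown to vary beyond counting error. The values also rest on 3 libraries, with WT replicate 2 apart.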
